A study of Papio hamadryas with 160 samples.

Results

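MiRNA expression was compared between the cerebellum (CB) and the hippocampus (HC) of 5 baboons, with both libraries of a pair taken from the same brain. The members were the CB libraries of animals B1, B3, B4, B5 and B6 and the HC libraries of the same animals, which is 10 of the 76 libraries in the table. All miRNAs of the table were tested. The study sequenced small RNA from peripheral blood mononuclear cells (PBMC) and brain regions of baboons (Papio hamadryas), and the animals used here belong to its Group B, which had 7 brain regions. Group B held older adult males and 1 younger adult female that had served as controls in a pregnancy study, received no treatment for this study, and were euthanized by exsanguination under anesthesia. Which of them is the female is not given in the sources used here. The CB sample was the lateral cerebellar lobule and the HC sample held all substructures, both dissected fresh and flash-frozen in liquid nitrogen. The table's own header names the HC columns as hippocampal dentate gyrus, whereas the sample labels say hippocampus. The authors left out the CB library of B2 because few of its reads mapped, so B2 is not among the pairs.

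MiRNAs are short RNAs that are cut from a hairpin precursor and guide silencing complexes to complementary messenger RNAs. Each hairpin can yield a 5p and a 3p strand, and the strand that is kept is the guide. The cerebellar cortex consists mostly of small granule neurons with a single layer of inhibitory Purkinje cells, while the hippocampus is forebrain cortex built around excitatory pyramidal neurons and dentate granule cells. These regions arise from different parts of the neural tube, the hindbrain for the cerebellum and the telencephalon for the hippocampus. Many miRNAs in brain are shared by all neurons, and others are known from particular neurons, glia or blood vessels. In tissue samples such as these, fewer cells of a type and less RNA per cell cannot be told apart. No mature or hairpin sequence was at hand, so the miRNAs are named only, without the hsa- prefix of the human reference.

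Values are RPM, the reads of a miRNA per 1000000 mapped miRNA reads of its library, listed in the order B1, B3, B4, B5, B6 throughout. Differences are CB minus HC on the log2(RPM + 1) scale, given as the mean over 5 pairs ± SE, and this scale understates the change of miRNAs near 0. Adjusted p-values come from limma with the animal as a block and cover all miRNAs of the table, with calls at 0.05. CB libraries held 3214189 to 7036396 mapped reads and HC libraries 2101140 to 2811816, so depth did not overlap between the regions. Of these reads, the miRNAs of the table held 62.0% to 63.1% in CB libraries and 63.1% to 65.2% in HC libraries. What made up the rest is not given in the sources used here. A count of 0 allowed up to 0.426 to 0.933 RPM in CB libraries and 1.07 to 1.43 RPM in HC libraries (3 reads, counting error only). With the reads of every library thinned to the lowest total, 279 miRNAs were called, compared with 285 at full depth. Brain miRNAs were present in every library, with 9685 to 13113 RPM of miR-124-3p in the CB and 3975 to 7675 RPM in the HC but 0.89 to 16.1 RPM in PBMC of these animals. No miRNA was taken as a defining marker of the CB or the HC alone, so the dissection itself was checked no further.

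CB and HC shared their general profile and differed in the level of most miRNAs. Of the miRNAs in the table, 285 were called (78.7%) and 77 were not, with 75 higher in the CB (20.7%) and 210 lower (58.0%). All 5 CB libraries lay above all 5 HC libraries for 50 miRNAs (13.8%) and below all of them for 154 (42.5%). The difference went the same way in 5 of 5 animals for 67 of the higher and 189 of the lower miRNAs. In RPM, large differences among the miRNAs of the table were mostly losses in the CB. The table kept only miRNAs detected in most brain samples of the study, few of which were CB. A miRNA found in the CB alone could not enter it, whereas a miRNA missing from the CB could. Large gains and large losses thus did not have the same chance of being seen. A log2 difference of at least 1 was found for 18 higher and 118 lower miRNAs, and one of at least 3 for 1 higher and 13 lower miRNAs. These counts and those of libraries without overlap were made in RPM only and were not repeated under another scaling. Between the CB and HC libraries of an animal, Spearman's r over all miRNAs was 0.87 to 0.89. It was 0.98 to 0.99 between the CB libraries of different animals and 0.98 to 0.99 between their HC libraries. The animals also resembled each other in what separated the regions, since the log2 differences of any 2 animals correlated across miRNAs at Pearson's r of 0.89 to 0.95 (10 pairs of animals, description only).

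The balance of higher and lower calls depended on the scaling. In RPM the median of all differences was −0.56. An RPM value is a share of a library, so a gain of abundant miRNAs lowers the values of all others. The median miRNA had 51.6 to 62.7 RPM in CB libraries and 96.1 to 108 RPM in HC libraries. Scaled by median of ratios, the median difference was −0.07 and 35.9% of the miRNAs were called higher and 35.6% lower, compared with 20.7% and 58.0% in RPM. The shares were 35.6% and 35.4% with edgeR, 34.0% and 34.8% with DESeq2, and 40.6% and 31.5% after quantile normalization. All 75 miRNAs called higher in RPM were also called higher under each of these 4 scalings, whereas 102 of the 210 lower miRNAs were also called lower under all of them. The median of all differences was −0.08 to 0.11 under these scalings, compared with −0.56 in RPM. Such an upward shift tests decreases more than gains, so the kept gains add little support. Where a named miRNA was called lower in RPM and not by median of ratios, both values are given. The plot of difference against level shows the wide lower tail and the position of the median.

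**Figure D1:**
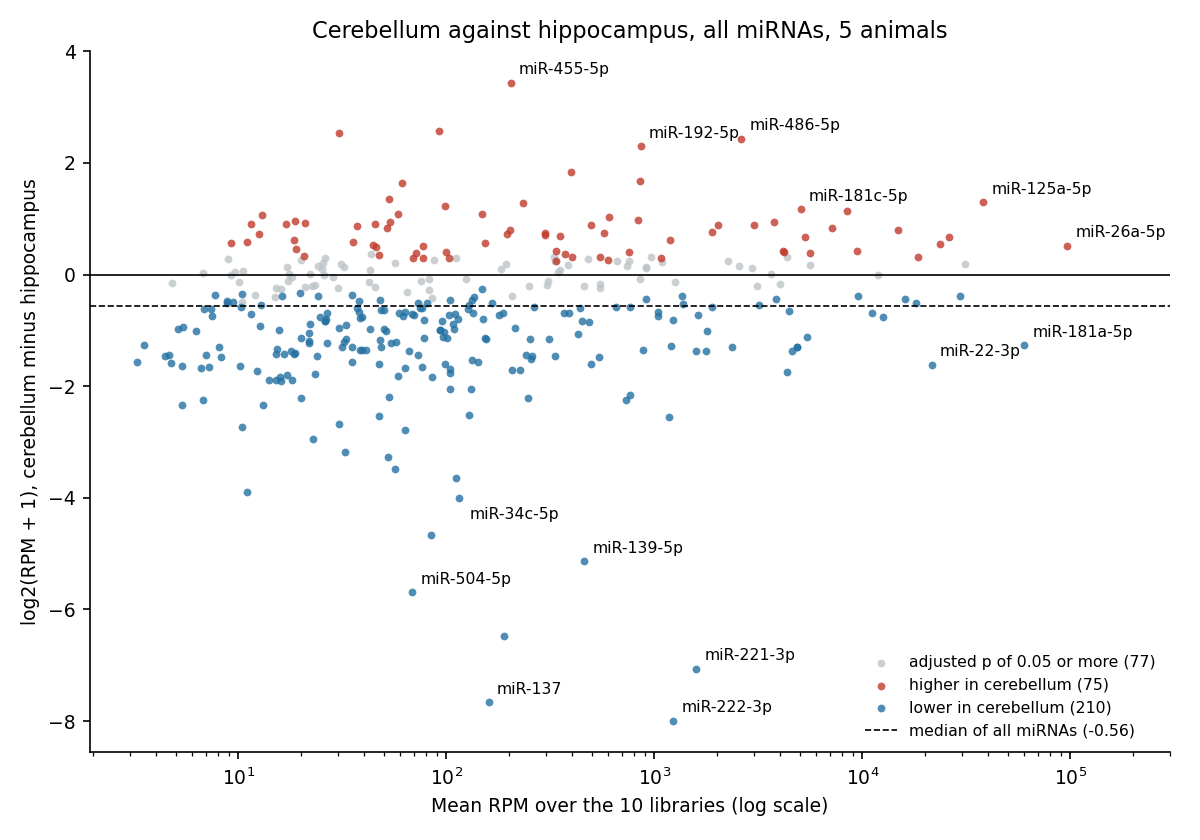
Each point is 1 miRNA, with its mean RPM over the 10 libraries on a log scale (x) and its mean log2(RPM + 1) difference, CB minus HC, over 5 animals (y). Red points were called higher (75), blue points lower (210) and grey points were not called. The solid line is 0 and the dashed line the median of −0.56. Losses reached −7.99 for miR-222-3p, while the largest gain was 3.44 for miR-455-5p.

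A small group of miRNAs that were abundant in the HC was nearly lost from the CB, led by the miR-221 and miR-222 cluster, whose members share a precursor transcript and a seed and are known to target the cell cycle inhibitor p27. MiR-222-3p measured 9.61, 6.16, 11.8, 6.88 and 8.40 RPM in the CB and 2642, 2297, 2114, 1708 and 3499 RPM in the HC. MiR-221-3p measured 20.6, 21.7, 22.4, 17.1 and 29.9 RPM in the CB and 2654, 2845, 3529, 2336 and 4379 RPM in the HC. The highest CB library was thus far below the lowest HC library for both. The log2 difference was −7.99 ± 0.17, adjusted p = 1.1e-08 for miR-222-3p and −7.06 ± 0.10, adjusted p = 1.5e-09 for miR-221-3p. Mean RPM was 286-fold and 141-fold higher in the HC. The other strand of the miR-221 hairpin, miR-221-5p, moved in the same way, from 294 to 518 RPM in the HC to 1.85 to 5.67 RPM in the CB (log2 difference −6.48 ± 0.23, adjusted p = 2.1e-07). Both miR-221 and miR-222 are also blood miRNAs, and the PBMC libraries of these animals had 1165 to 1692 RPM of miR-221-3p.

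MiR-137, a neuronal miRNA known in mice for limiting dendrite growth and in humans for its link to schizophrenia risk, was at the limit of detection in the CB. It measured 0.85, 0.25, 0.99, 0 and 0.93 RPM in the CB, which is 3, 1, 7, 0 and 3 reads. In the HC it measured 297, 314, 338.4, 233 and 411 RPM. The log2 difference was −7.67 ± 0.13, adjusted p = 2.8e-09, and with a pseudocount of 0.1 RPM it was −9.24. Pooled over libraries, 14 reads in the CB and 3778 in the HC gave a level 535-fold higher in the HC, with an exact 95% interval of 319 to 980.2 that covers counting error only. MiR-504-5p, which lies in an intron of the human FGF13 gene, was at 0.85, 1.48, 1.56, 1.68 and 2.80 RPM in the CB and 108, 134.5, 129.3, 123 and 182 RPM in the HC. Its log2 difference was −5.69 ± 0.10, adjusted p = 3.1e-09, and the pooled level was 82.1-fold higher in the HC (exact 95% interval 59.8 to 116). Neither miRNA had a CB library near any HC library.

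The other large losses left measurable levels in the CB. MiR-139-5p, which lies within the human phosphodiesterase gene PDE2A, had 20.4, 28.8, 25.3, 28.5 and 19.6 RPM in the CB and 739.6, 889, 943, 939.6 and 942 RPM in the HC (log2 difference −5.14 ± 0.12, adjusted p = 1.3e-08). MiR-935 had 2.71 to 7.25 RPM in the CB and 123 to 234 RPM in the HC (log2 difference −4.67 ± 0.18, adjusted p = 3.3e-07). Both strands of the miR-708 hairpin, which sits within the teneurin gene TENM4, fell by a similar amount. MiR-708-5p fell from 156 to 248 RPM to 12.1 to 21.2 RPM (log2 difference −3.65 ± 0.16, adjusted p = 5.7e-07), and miR-708-3p had a log2 difference of −3.27 ± 0.18, adjusted p = 2.3e-06. MiR-767-5p, which lies within the GABA receptor subunit gene GABRA3, had 7.22 to 8.95 RPM in the CB and 78.9 to 127 RPM in the HC (log2 difference −3.48 ± 0.13, adjusted p = 3.3e-07). MiR-1249-3p had 9.64 to 18.1 RPM and 84.2 to 143.4 RPM (log2 difference −2.78 ± 0.12, adjusted p = 5.7e-07). CB and HC libraries overlapped for none of these members (42.5% of all miRNAs lay below without overlap). Each was called lower under all 5 scalings, as were 102 of the 210 miRNAs called lower in RPM. The members were picked for large losses in 5 of 5 animals, so these traits follow in part from that choice. The levels per animal are shown for the leading miRNAs of both directions.

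**Figure D2:**
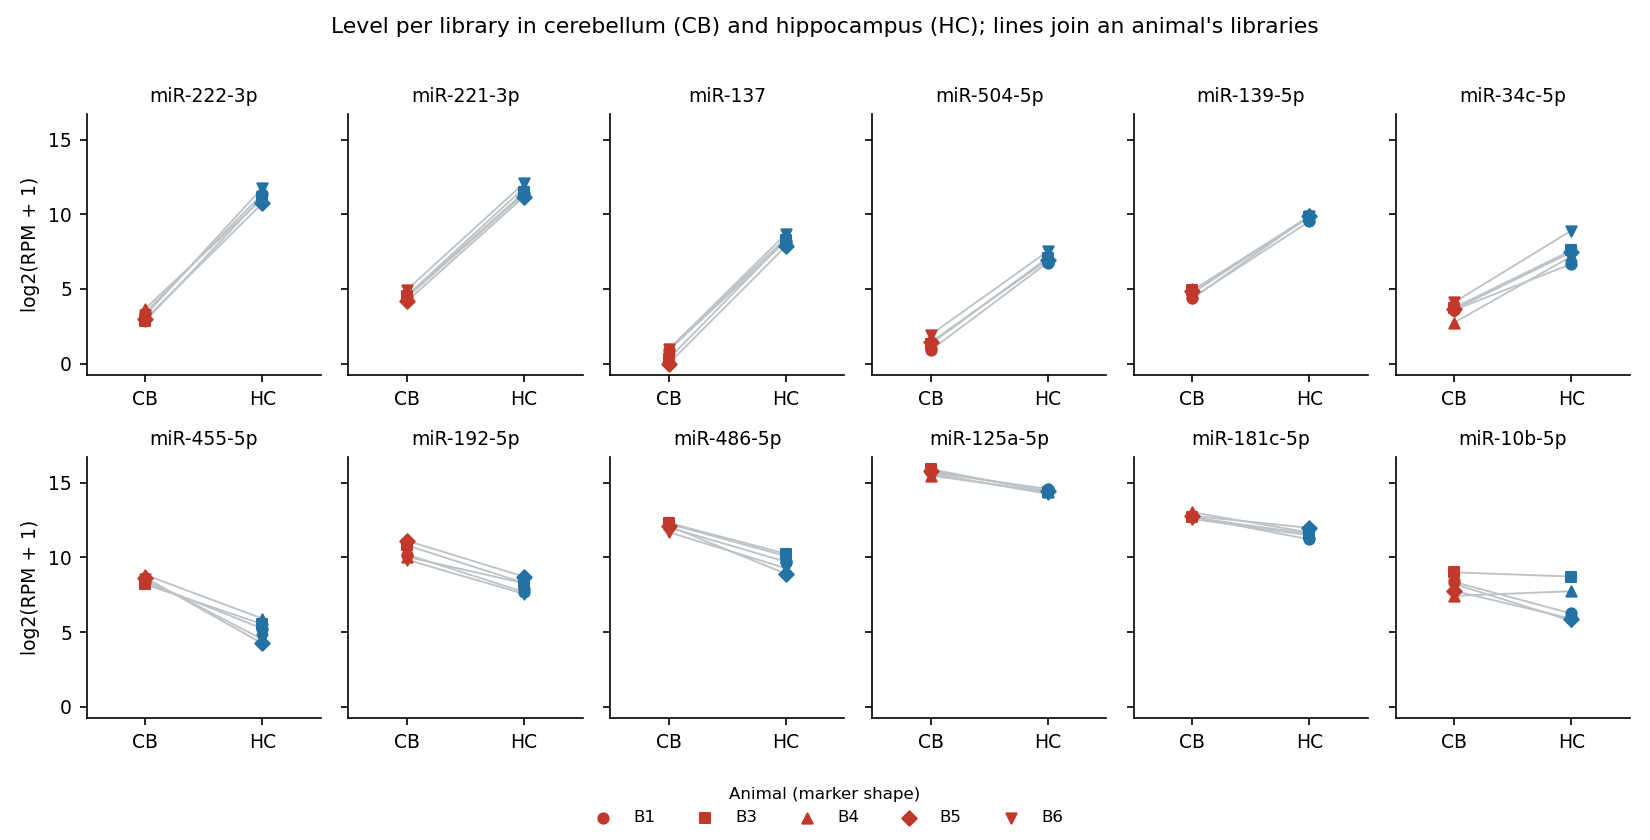
Log2(RPM + 1) of 12 miRNAs (y) in the CB (red) and HC (blue) of 5 animals, with a line joining the libraries of an animal and a marker shape for each animal. For the 6 miRNAs of the upper row every CB library lies below every HC library. In the lower row every CB library lies above every HC library except for miR-10b-5p, where B4 goes the other way.

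MiR-455-5p, encoded within the collagen gene COL27A1, showed the largest gain in the CB. It measured 328, 292, 454, 401 and 379.9 RPM in the CB and 36.6, 45.1, 58.9, 17.8 and 21.9 RPM in the HC (log2 difference 3.44 ± 0.26, adjusted p = 1.2e-05), and its mean was 10.3-fold higher in the CB. The 3p strand, chosen for mention after its values were seen, measured 38.9 to 73.9 RPM in the CB and 3.56 to 15.4 RPM in the HC. PBMC of these animals had 0 to 1.15 RPM of miR-455-5p. MiR-192-5p and miR-194-5p, which share clusters and are best known from liver, intestine and kidney, were raised together. MiR-192-5p measured 1171, 1792, 1052, 2226 and 919 RPM in the CB and 203.7, 312, 307, 418 and 187 RPM in the HC (log2 difference 2.30 ± 0.14, adjusted p = 3.4e-06). MiR-194-5p measured 121, 236, 94.2, 257 and 88.7 RPM in the CB and 17.6, 28.2, 24.1, 35.2 and 15.8 RPM in the HC (log2 difference 2.58 ± 0.17, adjusted p = 5.3e-06). Both were highest in B5 and next in B3 within each region, so the animals kept their order at the top.

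MiR-486-5p, which lies within the human ankyrin gene ANK1 and is abundant in red cells and muscle, measured 4149, 5102, 4891, 4434 and 3307 RPM in the CB and 836, 1215, 1091, 478 and 617 RPM in the HC (log2 difference 2.43 ± 0.17, adjusted p = 9.2e-06). The other red cell miRNAs did not rise with it. MiR-451a, the red cell miRNA that is processed without Dicer, measured 233, 226, 221.6, 233 and 195 RPM in the CB and 220.8, 431, 399, 154.7 and 188 RPM in the HC, and its log2 difference was −0.21 ± 0.23, adjusted p = 0.41. MiR-144-3p, from the same precursor cluster as miR-451a, had a log2 difference of −0.25 ± 0.22, adjusted p = 0.33. MiR-144-5p had a log2 difference of −0.54 ± 0.16, adjusted p = 0.017 in RPM and −0.07 (adjusted p = 0.65) by median of ratios, and the RPM call was lost without B3 or B4 (adjusted p = 0.051 to 0.061). Summed over the 4 red cell miRNAs, levels were 3541 to 5359.8 RPM in the CB and 662 to 1705 RPM in the HC, of which miR-486-5p made up most.

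MiR-484, known for a role in mitochondrial fission in heart muscle cells, measured 1038 to 1552 RPM in the CB and 340.3 to 493 RPM in the HC (log2 difference 1.67 ± 0.10, adjusted p = 4.1e-06). MiR-1296-5p measured 546 to 659.6 RPM and 113 to 246 RPM (log2 difference 1.84 ± 0.15, adjusted p = 1.8e-05), and miR-320b measured 65.7 to 85.9 RPM and 21.7 to 36.7 RPM (log2 difference 1.36 ± 0.15, adjusted p = 7.7e-05). These 3 miRNAs did not overlap between the regions (13.8% of all miRNAs lay above without overlap). MiR-10a-5p and miR-10b-5p, which lie in the HOXB and HOXD clusters that pattern the hindbrain and spinal cord, were both called higher (20.7% of all miRNAs in RPM). Against the neocortex, described below, only 1 of the 2 was called higher in the CB. MiR-10a-5p measured 149, 96.1, 67.8, 88.7 and 56.6 RPM in the CB and 31.4, 54.5, 40.8, 12.8 and 16.3 RPM in the HC (log2 difference 1.63 ± 0.29, adjusted p = 0.0013). MiR-10b-5p measured 328, 511, 171, 216 and 299 RPM in the CB and 74.7, 419.7, 211.98, 58.3 and 53.1 RPM in the HC (log2 difference 1.29 ± 0.40, adjusted p = 0.02). Its regions overlapped, it was lower in the CB of B4, and the call was lost without B1, B5 or B6 (adjusted p = 0.074, 0.066 and 0.06). MiR-10a-5p is high in PBMC (3522 to 11916 RPM), and its part from blood in these libraries was not tested.

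To see which region of a pair stood apart, each was set beside the neocortex of the same animals, taken as the mean over an animal's dorsolateral prefrontal, motor, posterior parietal and occipital cortex (18 libraries in all). The table had no motor cortex library of B4 and no occipital cortex library of B6, so the means of these animals cover the remaining areas only. CB against neocortex gave 285 calls (78.7%), 84 higher (23.2%) and 201 lower (55.5%). This split also moved with the scaling, to 37.3% higher and 40.1% lower by median of ratios and 44.5% and 37.8% after quantile normalization. HC against neocortex gave 88 calls (24.3%), 54 higher (14.9%) and 34 lower (9.39%), but 13.8% higher and 15.2% lower by median of ratios and 12.2% and 11.05% after quantile normalization, so neither direction led under all scalings. The number of calls rested on single animals, as it was 37, 42 and 56 without B1, B3 and B4. These comparisons share libraries with each other and with the CB to HC comparison, so they are not independent of it. Ranked by RPM within each animal over its brain regions in the table, the CB was the lowest region in 5 of 5 animals for 35.4% of miRNAs and the highest for 12.7%. These ranks were not repeated under another scaling. The choice of miRNAs for the table bears on them too, as miRNAs high in a single region alone could not enter. The HC was the lowest for 1.10% and the highest for 0.83%. The entorhinal cortex was the lowest for 0.55% and the highest for 5.80%.

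For the following leading losses the neocortex lay nearer the HC than the CB. The log2 difference of miR-1249-3p was −2.69 ± 0.09 for CB minus neocortex and 0.09 ± 0.11 for HC minus neocortex. That of miR-139-5p was −4.87 ± 0.09 for CB minus neocortex and 0.27 ± 0.08 for HC minus neocortex. MiR-222-3p spanned 512 to 2463 RPM in the 18 neocortex libraries and was −7.17 ± 0.17 for CB minus neocortex and 0.82 ± 0.19 for HC minus neocortex (adjusted p = 0.022 for the latter). MiR-137 spanned 76.8 to 317 RPM in the neocortex and was −6.83 ± 0.17 for CB minus neocortex and 0.84 ± 0.13 for HC minus neocortex (adjusted p = 0.0081 for the latter). The HC thus lay somewhat above the neocortex for these last miRNAs, and the CB far below both. Among the gains, miR-192-5p was 2.19 ± 0.08 for CB minus neocortex and −0.11 ± 0.13 for HC minus neocortex, miR-484 was 1.79 ± 0.08 for CB minus neocortex and 0.12 ± 0.09 for HC minus neocortex and miR-125a-5p was 1.20 ± 0.08 for CB minus neocortex and −0.10 ± 0.07 for HC minus neocortex. These gains, like miR-1249-3p and miR-139-5p above, were picked as the leading miRNAs whose neocortex level was nearest the HC. The neocortex was close to the HC for them by that choice. It lay further toward the CB for miR-181c-5p (0.74 ± 0.08 for CB minus neocortex and −0.43 ± 0.09 for HC minus neocortex), miR-1296-5p (1.18 ± 0.08 for CB minus neocortex and −0.66 ± 0.15 for HC minus neocortex) and miR-124-3p (0.85 ± 0.08 for CB minus neocortex and −0.29 ± 0.10 for HC minus neocortex). These members, with miR-34c-5p and miR-129-1-3p below, were picked as those with the neocortex nearest the CB relative to the CB to HC difference.

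MiR-34c-5p was an exception, since it was the HC that stood apart. MiR-34c-5p is known from ciliated cells and testis, and in mice it has been studied in hippocampal memory. It measured 11.02, 12.3, 5.68, 11.4 and 16.2 RPM in the CB, 101, 190.4, 143.8, 175 and 479 RPM in the HC and 6.12 to 64.7 RPM in the neocortex. The log2 difference was −4.00 ± 0.23, adjusted p = 3.2e-06 for CB minus HC. Against the neocortex it was 3.65 for the HC (adjusted p = 8.2e-06) and −0.35 for the CB (adjusted p = 0.079). Every HC library lay above every neocortex library. The HC of B6 was the highest, with 479 RPM, and the HC of B2, which has no CB partner, had 134.7 RPM. MiR-129-1-3p, a strand of the neuronal miR-129 hairpins, was low in the HC instead. It measured 177, 149.9, 129.9, 129.8 and 75.6 RPM in the CB and 54.3, 56.8, 80.8, 110.2 and 15.8 RPM in the HC (log2 difference 1.24 ± 0.27, adjusted p = 0.0035), and was −0.13 ± 0.09 for CB minus neocortex and −1.37 ± 0.32 for HC minus neocortex (adjusted p = 0.024 for the latter). MiR-10b-5p resembled it, with −0.29 ± 0.13 for CB minus neocortex and −1.57 ± 0.34 for HC minus neocortex (adjusted p = 0.018 for the latter). The plot with the neocortex ranges shows these exceptions beside the other leading miRNAs.

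**Figure D3:**
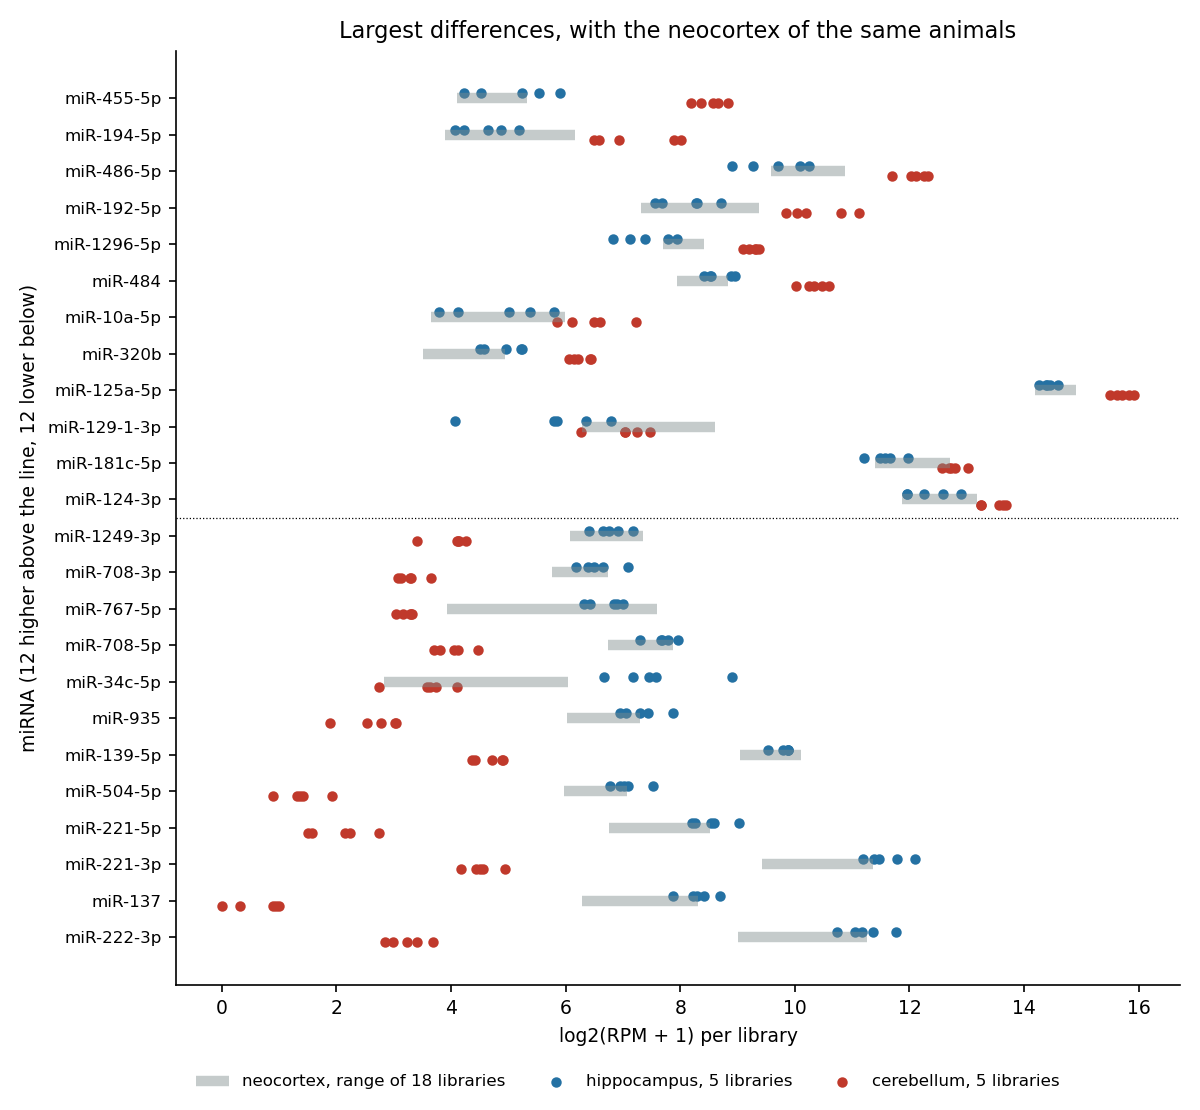
Log2(RPM + 1) per library (x) of the 12 miRNAs with the largest gain and the 12 with the largest loss in the CB (y) among called miRNAs with a mean of at least 50 RPM and the same direction in 5 of 5 animals, with 5 CB libraries in red, 5 HC libraries in blue and the range of 18 neocortex libraries of the same animals as a grey bar. HC points fall in or near the grey bar for most rows. For miR-34c-5p and miR-129-1-3p the CB points fall in or near it and the HC points lie outside it in part or in full.

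Among the most abundant miRNAs of both regions, some gained and others lost by large numbers of reads. MiR-26a-5p, the most abundant miRNA of the CB, measured 113179 ± 10195 RPM in the CB and 78914 ± 5197 RPM in the HC (SD, n = 5), with a log2 difference of 0.52 ± 0.11, adjusted p = 0.0028. MiR-181a-5p, the most abundant of the HC, measured 33664, 33690.5, 40635, 28309 and 40699 RPM in the CB and 93376, 84981, 79711, 88312 and 76797 RPM in the HC, with a log2 difference of −1.27 ± 0.14, adjusted p = 7.9e-05. MiR-22-3p, a broadly expressed miRNA, measured 10552 ± 608 RPM in the CB and 32468 ± 4084 RPM in the HC (SD, n = 5), with a log2 difference of −1.61 ± 0.11, adjusted p = 8.0e-06. Regions did not overlap for these members (over all miRNAs 13.8% lay above and 42.5% below without overlap). MiR-9-5p, a regulator of neural progenitors, was not called (log2 difference 0.19 ± 0.12, adjusted p = 0.16), although median of ratios gave 0.69 (adjusted p = 8.7e-04). MiR-127-3p measured 11261 to 19408 RPM in the CB and 15081 to 20708 RPM in the HC (log2 difference −0.44 ± 0.15, adjusted p = 0.025), and its call was lost without B1, B3 or B6 (adjusted p = 0.06, 0.083 and 0.074). By median of ratios it was 0.06 (adjusted p = 0.71).

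In some families that share a seed, members moved in opposite directions. Of the 4 miR-181 guide strands, miR-181a-5p and miR-181b-5p, which share clusters, were lower in the CB. MiR-181c-5p and miR-181d-5p, from a separate cluster, were higher. MiR-181b-5p measured 1918, 2132, 1902, 1849.9 and 2206 RPM in the CB and 7255, 7145, 6308, 6574 and 6109.9 RPM in the HC (log2 difference −1.74 ± 0.11, adjusted p = 4.1e-06). MiR-181c-5p measured 6754, 6579, 8359, 7089 and 6095 RPM in the CB and 2369.7, 3052, 3253, 4043 and 2863 RPM in the HC (log2 difference 1.18 ± 0.13, adjusted p = 7.8e-05). MiR-181d-5p had a log2 difference of 0.68 ± 0.10, adjusted p = 4.7e-04. All 4 kept these directions and calls under all 5 scalings. Over all miRNAs, all 75 called higher in RPM and 102 of the 210 called lower did so. Because miR-181a-5p was so abundant, the summed level of the family was 37655 to 51352 RPM in the CB and 85989 to 103256 RPM in the HC. In the miR-29 family, which represses collagen genes, miR-29c-3p was higher and miR-29b-3p lower in the CB. MiR-29c-3p measured 2431 to 2791 RPM in the CB and 1249.8 to 1607 RPM in the HC (log2 difference 0.89 ± 0.11, adjusted p = 1.6e-04), and miR-29b-3p measured 291 to 481 RPM and 484 to 851 RPM (log2 difference −0.86 ± 0.13, adjusted p = 5.4e-04). MiR-29a-3p was −0.43 (adjusted p = 0.014) in RPM and 0.07 (adjusted p = 0.65) by median of ratios.

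MiR-125a-5p and miR-99b-5p, from a common cluster, rose in the CB, while miR-125b-5p and miR-100-5p, which belong to paralogous clusters, were lower in RPM. MiR-125a-5p measured 53666, 62048, 46119.8, 58146 and 50576 RPM in the CB and 24715, 21636, 21384, 22505 and 19698 RPM in the HC (log2 difference 1.30 ± 0.11, adjusted p = 1.9e-05). MiR-99b-5p measured 29523 to 35148 RPM and 19020.0 to 21175 RPM (log2 difference 0.68 ± 0.10, adjusted p = 4.7e-04). For miR-125b-5p the log2 difference was −0.52 ± 0.10, adjusted p = 0.0024 in RPM and −0.02 (adjusted p = 0.89) by median of ratios, and for miR-100-5p it was −0.69 ± 0.15, adjusted p = 0.0031 and −0.19 (adjusted p = 0.26). The decreases of the latter therefore depended on the scaling. The gains were called under every scaling, but the other scalings mostly raise differences and so test gains little. Of the 9 let-7 guide strands, 4 were called higher and 2 lower in RPM, and 7 higher and 0 lower by median of ratios (over all miRNAs 20.7% and 58.0%, and 35.9% and 35.6%). Let-7a-5p measured 23381 to 32131 RPM in the CB and 17145 to 21822 RPM in the HC (log2 difference 0.56 ± 0.11, adjusted p = 0.002). Let-7b-5p, let-7g-5p and let-7f-5p had log2 differences of 0.41, 0.39 and 0.31 (adjusted p = 0.013, 0.011 and 0.028). The call of let-7f-5p was lost without B1, B3, B4 or B5 (adjusted p = 0.059 to 0.094) and that of let-7b-5p without B3 (adjusted p = 0.053).

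Of the 5 miR-30 guide strands, 3 were called higher in RPM (20.7% of all miRNAs) and 5 by median of ratios (35.9% of all miRNAs), with none lower. MiR-30a-5p measured 16419 to 20767 RPM in the CB and 9657 to 11819 RPM in the HC (log2 difference 0.79 ± 0.11, adjusted p = 2.6e-04), and miR-30d-5p had a log2 difference of 0.41 ± 0.09, adjusted p = 0.0042. MiR-30e-5p and miR-30c-5p were not called, with 0.17 and 0.01. In the miR-15/16 seed family, whose members restrain the cell cycle, 4 of 6 were higher and 1 lower in RPM (20.7% and 58.0% of all miRNAs). MiR-16-5p measured 5867 to 7658 RPM and 3256 to 4752 RPM (log2 difference 0.68 ± 0.11, adjusted p = 7.5e-04). MiR-195-5p measured 441, 868, 968, 820.4 and 996 RPM in the CB and 409.8, 345, 479, 384 and 328 RPM in the HC (log2 difference 1.03 ± 0.20, adjusted p = 0.0022). MiR-497-5p, from the same cluster as miR-195-5p, measured 144.4, 431, 354, 399.6 and 578 RPM in the CB and 189.9, 210.5, 225, 202 and 240.2 RPM in the HC (log2 difference 0.71 ± 0.23, adjusted p = 0.022). Both had their lowest CB value in B1, and miR-497-5p lost its call without B3, B5 or B6 (adjusted p = 0.063 to 0.069). The lower member was miR-424-5p, named after its value was seen, with a log2 difference of −1.72 ± 0.16, adjusted p = 3.9e-05. MiR-15a-5p had a log2 difference of 0.31 (adjusted p = 0.032), with the call lost without B1, B3, B4 or B5 (adjusted p = 0.064 to 0.12).

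The miR-17 to 92 clusters, which promote proliferation, had 8 of 12 members called lower in RPM and 1 higher (58.0% and 20.7% of all miRNAs). By median of ratios 5 were lower and 4 higher (35.6% and 35.9% of all miRNAs). MiR-92a-3p measured 1075 to 1681 RPM in the CB and 2909 to 3612 RPM in the HC (log2 difference −1.30 ± 0.12, adjusted p = 3.4e-05). MiR-93-5p and miR-19b-3p had log2 differences of −0.83 and −0.80 (adjusted p = 3.5e-04 and 0.0011), the latter −0.30 by median of ratios, adjusted p = 0.092, while miR-25-3p, from the same cluster as miR-93-5p, had 0.24 (adjusted p = 0.094). The miR-23/27/24 clusters showed 7 of 8 lower in RPM (58.0% of all miRNAs), and 2 lower and 1 higher by median of ratios (35.6% and 35.9% of all miRNAs). Their median log2 difference was −0.66, near the −0.56 of all miRNAs. MiR-27a-3p had a log2 difference of −0.69 ± 0.10, adjusted p = 4.4e-04 and miR-27b-3p one of −0.39 ± 0.11, adjusted p = 0.012. The call of miR-27b-3p was lost without B3 (adjusted p = 0.051). By median of ratios these were −0.19 and 0.11 (adjusted p = 0.12 and 0.34). MiR-23b-3p and miR-24-3p had −0.39 and −0.21 in RPM (adjusted p = 0.02 and 0.078) and 0.11 and 0.29 by median of ratios, and the call of miR-23b-3p was lost without B1, B3 or B4 (adjusted p = 0.058 to 0.079).

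The oligodendrocyte list, the miR-219a and miR-338 strands that drive myelinating cells to mature, was lower in the CB as a whole. Its 4 members were all called lower under every scaling. Over all miRNAs 58.0% were called lower in RPM, and 102 of these 210 were called lower under every scaling. The median log2 difference of the list was −1.81, compared with −0.56 for all miRNAs. MiR-219a-5p measured 297, 233, 309, 274 and 272 RPM in the CB and 1123, 1134, 1537, 1099.7 and 1346 RPM in the HC (log2 difference −2.16 ± 0.11, adjusted p = 1.5e-06). MiR-219a-2-3p measured 214 to 281 RPM and 1126 to 1408 RPM (log2 difference −2.25 ± 0.10, adjusted p = 8.1e-07). MiR-338-3p measured 2794, 3068, 2252, 2398 and 2273 RPM in the CB and 7373, 7517, 6021, 5624 and 6589 RPM in the HC (log2 difference −1.37 ± 0.10, adjusted p = 9.6e-06), and its partner strand miR-338-5p had a log2 difference of −1.46 ± 0.18, adjusted p = 1.5e-04. Summed over the list, levels were 2927 to 3652 RPM in the CB and 8162 to 10305 RPM in the HC, without overlap.

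Of 28 forebrain and neuron miRNAs, 19 were called lower in the CB, 3 higher and 6 not at all (by median of ratios 15 lower and 7 higher). Over all miRNAs 58.0% were lower in RPM and 35.6% by median of ratios, and 20.7% and 35.9% were higher. The list was written with earlier results of these data known and held miR-221-3p, miR-222-3p and miR-137, which are among the largest losses. Its median log2 difference was −0.996, compared with −0.56 for all miRNAs, which is description only. MiR-124-3p, the neuronal miRNA that represses non-neuronal genes, went the other way, with 9748, 9685, 12073, 12696 and 13113 RPM in the CB and 3975, 3997, 6159, 7675 and 4882 RPM in the HC (log2 difference 1.14 ± 0.13, adjusted p = 1.1e-04). MiR-128-3p, another neuronal miRNA, measured 6529 to 9389 RPM in the CB and 9109 to 13407 RPM in the HC. Its log2 difference was −0.39 ± 0.12, adjusted p = 0.02, was lower in 4 of 5 animals and lost its call without B1, B4 or B5 (adjusted p = 0.059 to 0.068), and median of ratios gave 0.11 (adjusted p = 0.48). Of the lower members, miR-138-5p, miR-132-3p and miR-212-3p were picked for mention after their values were seen, the latter pair being induced by neuronal activity. MiR-138-5p measured 302 to 399 RPM in the CB and 1727 to 2442 RPM in the HC (log2 difference −2.56 ± 0.10, adjusted p = 3.7e-07), and miR-132-3p and miR-212-3p had log2 differences of −1.60 and −1.81 (adjusted p = 5.6e-04 and 7.6e-05).

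The vascular list, which holds the endothelial miR-126 and the smooth muscle miR-143 and miR-145, was called lower for 5 of 5 members in RPM (58.0% of all miRNAs) and for 0 by median of ratios (35.6% of all miRNAs), with a median log2 difference of −0.77 and −0.27 respectively. MiR-126-3p measured 752 to 836 RPM in the CB and 1085 to 1508 RPM in the HC (log2 difference −0.74 ± 0.12, adjusted p = 6.3e-04 and −0.24 by median of ratios, adjusted p = 0.11), and miR-126-5p had a log2 difference of −0.65 ± 0.10, adjusted p = 5.1e-04 (−0.15 by median of ratios, adjusted p = 0.24). MiR-143-3p measured 7420.4, 7445, 8604, 10043 and 10616 RPM in the CB and 9931, 23462, 25026, 10609.9 and 11716 RPM in the HC (log2 difference −0.77 ± 0.26, adjusted p = 0.028 and −0.27 by median of ratios, adjusted p = 0.34), and its RPM call was lost without B3 or B4 (adjusted p = 0.081 for each). MiR-145-5p had a log2 difference of −1.13 ± 0.29, adjusted p = 0.0087 (−0.63 by median of ratios, adjusted p = 0.071). MiR-143-3p and miR-145-5p were high in the HC of the same animals, B3 and B4. Of 6 leukocyte miRNAs, 5 were lower and 1 higher in RPM and by median of ratios. Over all miRNAs 58.0% and 35.6% were lower and 20.7% and 35.9% higher. After quantile normalization 3 of the leukocyte miRNAs were lower (31.5% of all miRNAs). MiR-142-5p, a marker of blood-derived cells and microglia, measured 123 to 185 RPM in the CB and 192 to 515 RPM in the HC (log2 difference −1.15 ± 0.14, adjusted p = 1.5e-04). MiR-150-5p and miR-155-5p, lymphocyte and immune activation miRNAs, had log2 differences of −1.02 and −1.21 (adjusted p = 1.4e-04 and 2.6e-04). MiR-342-3p, the higher member, measured 681 to 751 RPM and 371 to 462 RPM (log2 difference 0.74 ± 0.10, adjusted p = 2.0e-04). Summed leukocyte levels were 946 to 1007 RPM in the CB and 828 to 1134 RPM in the HC, and the part of blood cells in the differences was not tested.

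All 5 inflammation miRNAs were lower in RPM (58.0% of all miRNAs) and 4 of them by median of ratios (35.6% of all miRNAs). MiR-21-5p, which is induced in reactive glia and many cancers, measured 648 to 797 RPM in the CB and 1363 to 1942 RPM in the HC (log2 difference −1.29 ± 0.11, adjusted p = 2.1e-05), and its partner strand miR-21-3p had a log2 difference of −1.31 ± 0.20, adjusted p = 5.2e-04. MiR-146b-5p measured 559.5, 494, 477, 452 and 357 RPM in the CB and 1366, 1343, 1181, 2124 and 498 RPM in the HC (log2 difference −1.35 ± 0.22, adjusted p = 7.5e-04), with overlap because the HC of B6 was low. MiR-146a-5p, a feedback inhibitor of innate immune signalling, was −0.69 (adjusted p = 0.009) in RPM and −0.19 (adjusted p = 0.39) by median of ratios.

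The choroid plexus list was divided, with 3 of 4 lower and 1 higher under every scaling (in RPM 58.0% of all miRNAs were lower and 20.7% higher). Over all miRNAs, 102 of the 210 lower and all 75 higher kept their call under every scaling. MiR-204-5p measured 3218, 3647, 4198, 4124 and 3926 RPM in the CB and 1439, 2497, 2624, 1275 and 3135 RPM in the HC (log2 difference 0.88 ± 0.20, adjusted p = 0.0043). MiR-211-5p, which shares its seed with miR-204-5p, measured 33.9, 37.7, 26.3, 57.6 and 33.3 RPM in the CB and 242, 249, 188, 283 and 137.8 RPM in the HC (log2 difference −2.51 ± 0.15, adjusted p = 3.2e-06). MiR-1298-5p and miR-1298-3p had log2 differences of −1.92 and −2.74 (adjusted p = 4.1e-04 and 1.4e-06) at a mean of 25.9 and 18.7 RPM in the HC. The muscle miRNAs were lower for 4 of 4 members in RPM (58.0% of all miRNAs), 3 by median of ratios (35.6% of all miRNAs) and 2 after quantile normalization (31.5% of all miRNAs). MiR-133a-3p measured 28.0 to 62.3 RPM in the CB, 95.9 to 254 RPM in the HC and 195 to 867 RPM in the neocortex (log2 difference CB minus HC −2.06 ± 0.17, adjusted p = 2.1e-05). MiR-1-3p, from the same clusters, had a log2 difference of −2.53 ± 0.19, adjusted p = 1.3e-05, miR-499a-5p one of −0.97 ± 0.13, adjusted p = 2.5e-04 and miR-208b-3p one of −0.92 ± 0.30, adjusted p = 0.022 (−0.47 by median of ratios, adjusted p = 0.18). The last RPM call was lost without B3, B4 or B5 (adjusted p = 0.057 to 0.067). The neuroendocrine and ciliated cell list had 3 of 3 lower in RPM (58.0% of all miRNAs) and 2 under each of the other 4 scalings (31.5% to 35.6% of all miRNAs). Beside miR-34c-5p, miR-7-5p measured 78.4 to 136 RPM and 206 to 468 RPM (log2 difference −1.70 ± 0.14, adjusted p = 1.8e-05). MiR-375 had a log2 difference of −0.75 ± 0.26, adjusted p = 0.027 (−0.27 by median of ratios, adjusted p = 0.34) and lost its RPM call without B1, B3, B5 or B6 (adjusted p = 0.059 to 0.081).

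The 14q32 imprinted cluster, a large miRNA cluster that is expressed mainly in brain and placenta, had 54 members in the table. In RPM 37 were lower, 5 higher and 12 not called, and by median of ratios 18 were lower and 12 higher. Over all miRNAs 58.0% were lower and 20.7% higher in RPM, and 35.6% lower and 35.9% higher by median of ratios. Its median log2 difference was −0.62, near the −0.56 of all miRNAs. MiR-381-3p measured 2296, 2047, 3177, 2739 and 1756 RPM in the CB and 1245, 1424, 1268, 1353 and 1636 RPM in the HC (log2 difference 0.77 ± 0.18, adjusted p = 0.0047). MiR-410-3p measured 1022, 937, 1769.9, 1287 and 1156 RPM in the CB and 1636, 2034, 1944, 2125 and 2262 RPM in the HC (log2 difference −0.72 ± 0.15, adjusted p = 0.0029, and −0.22 by median of ratios with adjusted p = 0.19). MiR-411-5p had a log2 difference of 0.32 (adjusted p = 0.084). The highest CB value of miR-127-3p, miR-381-3p, miR-410-3p and miR-411-5p was in each case that of B4. The summed level was 22263 to 36800.1 RPM in the CB and 27676 to 36071 RPM in the HC. Of the 6 miRNAs of the Xp11.23 cluster, 2 were higher in RPM (20.7% of all miRNAs) and 6 by median of ratios (35.9% of all miRNAs), with none lower. MiR-532-5p and miR-502-3p had log2 differences of 0.56 and 0.53 (adjusted p = 0.014 and 0.0054), and miR-500a-3p and miR-660-5p, which were not called, had 0.24 and 0.30. The plot of lists sets all groups beside the median of all miRNAs.

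**Figure D4:**
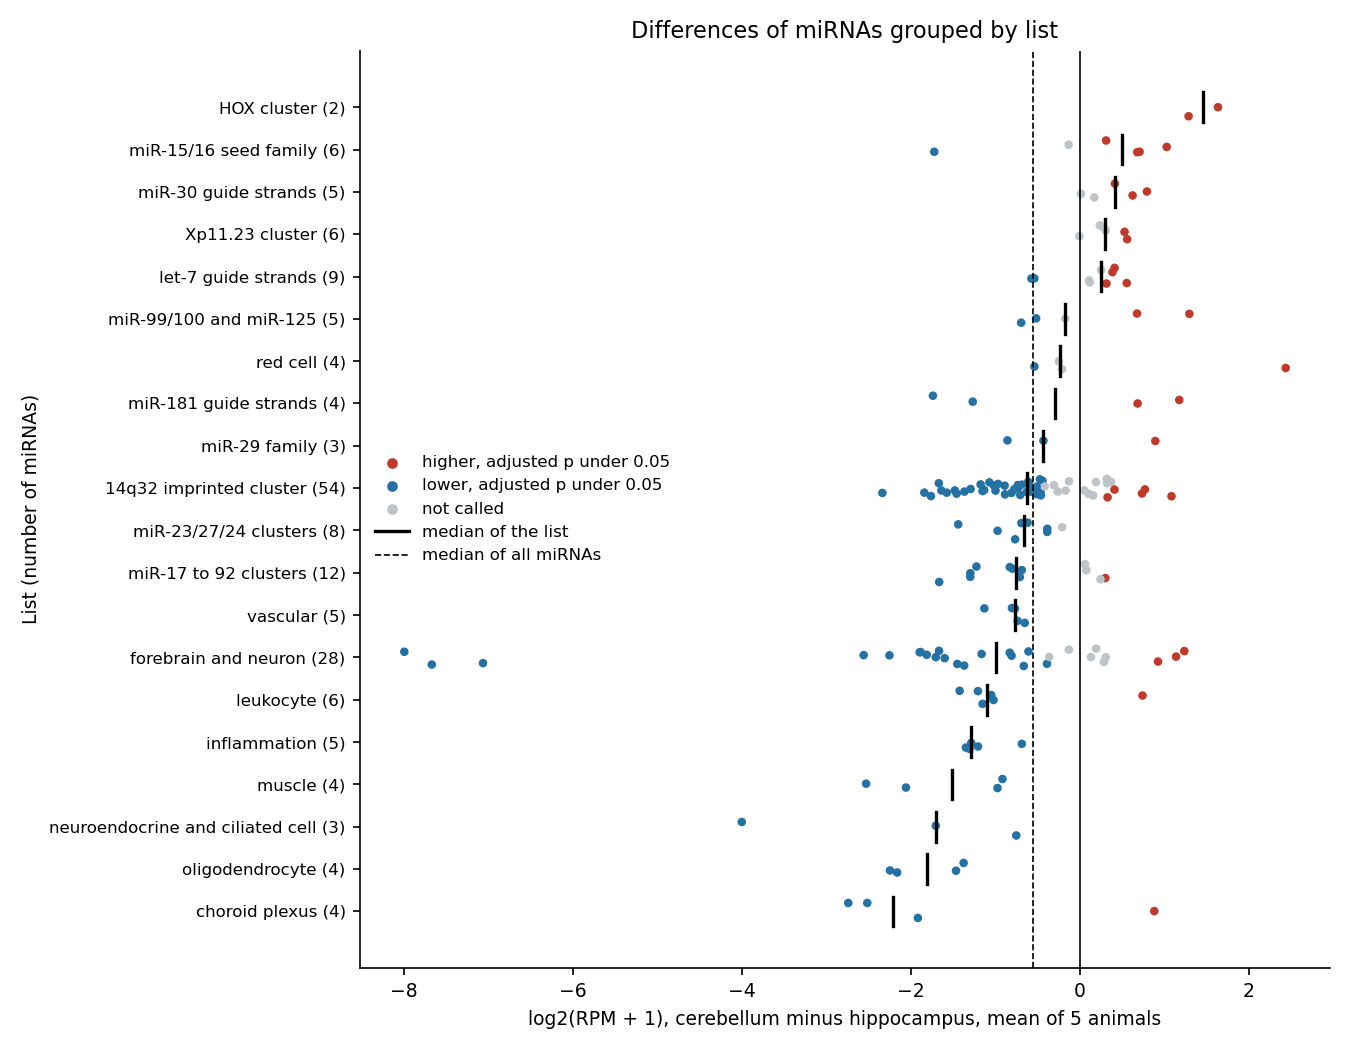
Mean log2(RPM + 1) difference, CB minus HC, over 5 animals (x) of each member of 20 miRNA lists (y, with the number of miRNAs), where red points were called higher, blue points lower and grey points not called. Black bars are list medians, the solid line is 0 and the dashed line the median of all miRNAs (−0.56). List medians run from −2.22 for the choroid plexus list to 1.46 for the HOX cluster list.

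The share of the 5p and 3p strands of a hairpin does not depend on the scaling of a library. It was compared for 91 hairpins as log2((5p + 1)/(3p + 1)) in RPM, with the same paired fit, and the added 1 RPM pulls this ratio toward 0 where a strand is scarce. Of these, 23 were called (25.3%), 14 with a lower and 9 with a higher ratio in the CB. The 5p share itself was lower in the CB for 13 of the 14. MiR-139 was the exception, with a mean 5p share of 97.9% in the CB and 97.6% in the HC and a 3p strand of 0.506 RPM in the CB. MiR-339 changed most. Its 5p strand made up 2.13%, 3.23%, 1.65%, 2.16% and 3.01% of both strands in the CB and 8.45%, 13.3%, 9.03%, 12.6% and 7.21% in the HC (log2 ratio difference −2.12 ± 0.19, adjusted p = 8.8e-05). Its strands moved in opposite directions, since miR-339-3p averaged 643 RPM in the CB and 346.2 RPM in the HC (log2 difference 0.89 ± 0.11, adjusted p = 1.4e-04), and miR-339-5p 15.4 and 37.8 RPM (log2 difference −1.23 ± 0.17, adjusted p = 2.7e-04). MiR-377, of the 14q32 cluster, had 34.99%, 35.2%, 37.7%, 42.2% and 38.6% 5p in the CB and 48.8%, 49.3%, 61.4%, 56.1% and 66.3% in the HC (log2 ratio difference −1.05 ± 0.15, adjusted p = 8.7e-04), so the more abundant strand was 3p in all CB libraries and 5p in 3 of the HC libraries. For miR-744 the 5p share was 93.1% ± 1.08 in the CB and 97.05% ± 0.382 in the HC (SD, n = 5, log2 ratio difference −1.28 ± 0.15, adjusted p = 2.7e-04).

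MiR-181c shifted toward 5p, with 94.9%, 94.7%, 94.8%, 93.7% and 94.2% in the CB and 89.1%, 89.6%, 88.9%, 89.8% and 90.3% in the HC (log2 ratio difference 0.997 ± 0.12, adjusted p = 3.5e-04). Its 3p strand, miR-181c-3p, averaged 408 RPM in the CB and 363 RPM in the HC (log2 difference 0.18 ± 0.10, adjusted p = 0.13). MiR-376a shifted toward 3p (log2 ratio difference −0.79 ± 0.17, adjusted p = 0.0069). MiR-455 shifted toward 5p (log2 ratio difference 0.90 ± 0.27, adjusted p = 0.043), a call that was lost without B1, B4 or B5 (adjusted p = 0.078, 0.079 and 0.059) and with a pseudocount of 0.1 RPM (adjusted p = 0.094), and whose lowest 5p share was that of the HC of B6 at 58.7%. The strands of a hairpin nevertheless moved together in most cases. Both were called for 56 of the 91 hairpins and went the same way for 53 of these, and Pearson's r of the 5p and 3p differences over hairpins was 0.92 (n = 91, strands from the same libraries, description only).

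**Figure D5:**
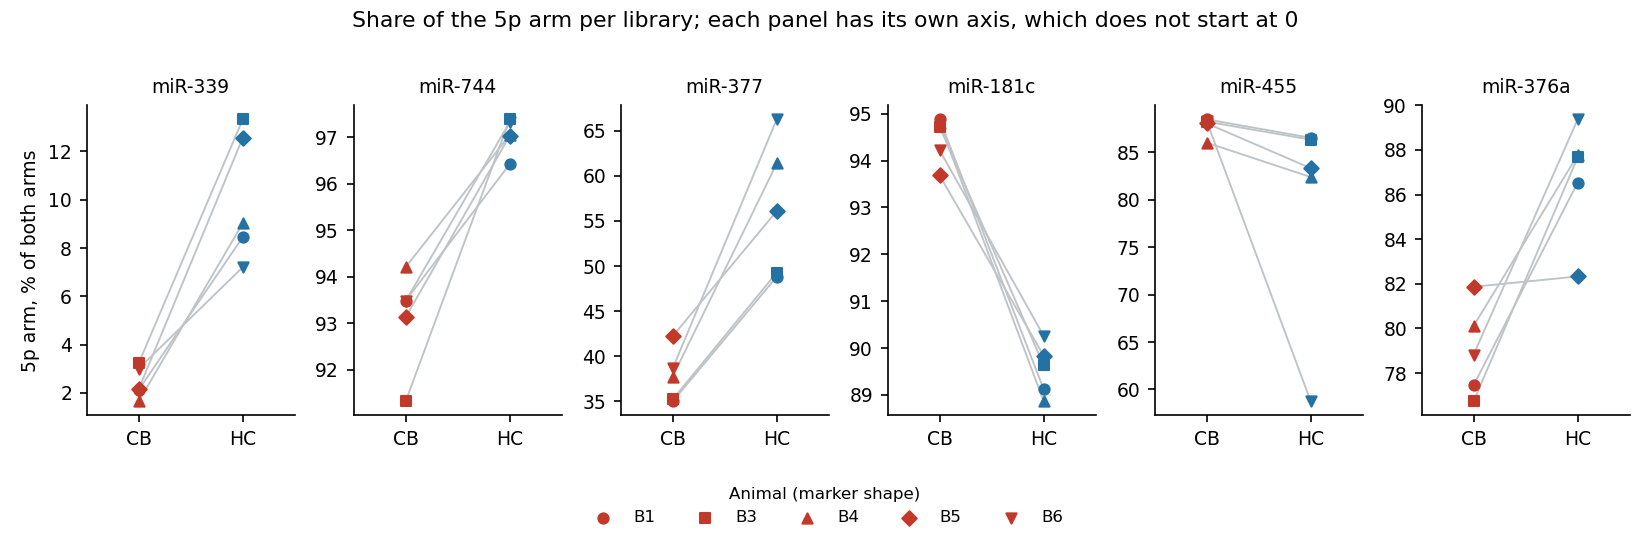
Share of the 5p strand in the reads of both strands (y, percent) for 6 hairpins in the CB (red) and HC (blue) of 5 animals, with a line joining the libraries of an animal. Each panel has its own axis, which does not start at 0. The regions do not overlap for miR-339, miR-744, miR-377, miR-181c and miR-376a.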

How the data were processed

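Small RNA libraries were made by the authors with the Illumina Truseq kit from miRNeasy total RNA and run on a GAIIx. Trimmed reads were aligned with bowtie in mirDeep2 (versions not given in the sources used here) to human miRBase with no mismatch allowed, so baboon reads that differ from the human sequence were not counted. To make the deposited RPM values, the authors divided by the miRNA reads mapped in a library after joining its sequencing runs. Only miRNAs detected in most brain samples were kept. The deposited total count per miRNA, summed by the authors over the 76 libraries, served only as a check. Whole reads were recovered from RPM values up to 200.0. In all libraries 100% of these were whole within 0.1 reads, and their sum for a miRNA was 0.999957 to 1.0 of its deposited total.

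CB and HC were compared with limma 3.58.1 on log2(RPM + 1) of all miRNAs, blocked by animal, with p-values adjusted by Benjamini-Hochberg and called at 0.05. The labels name the animal of each library, and each pair comes from 1 brain. As a check, deviations of CB and HC libraries from their region means correlated at r = 0.144 to 0.462 within animals (219 miRNAs above 50 RPM). Between animals r was −0.343 to 0.212, so the ranges overlapped. Each CB library correlated best with the HC of its own animal, but B4 by little (0.144, compared with 0.134 with the HC of B5). Alternatives were no block, pseudocounts of 0.1 and 10 RPM, edgeR 4.0.16 and DESeq2 1.42.0 on recovered reads, quantile normalization, scaling by median of ratios, a filter at a mean of 10 RPM, all Group B brain libraries in 1 fit, and each animal left out. Thinned reads and the HC of B2 were tried later, with the data seen. Simulated data served to check the tests.

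Members and the 20 lists were chosen with earlier results of these data known. Named miRNAs were the 12 higher and 12 lower with the largest difference among those called, alike in 5 of 5 animals and with a mean of at least 50 RPM, the 5 most abundant called in each direction, the 4 most abundant of each list, and the 6 hairpins with the largest arm change at 20 RPM or more in both arms. Of the first, the 5 nearest the CB and the 5 nearest the HC in neocortex were to be described. Identical or near-identical values of miR-199a-3p and miR-199b-3p, miR-365a-3p and miR-365b-3p, and miR-151a-5p and miR-151b count as separate miRNAs and are uncertain. As the libraries of a region come from separate animals, p-values cover the spread between animals.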

Additional observations from a re-analysis of the deposited data

Results flagged for a closer look

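For 6 of 210 groups of 5 libraries of a named miRNA, a single library lay far from the other 4 on the log2(RPM + 1) scale (gap over 0.71 of the range), and chance alone marks about 1 in 20 such groups. MiR-139-5p had 739.6 RPM in the HC of B1, where the other 4 HC libraries had 889 to 943 RPM. MiR-1249-3p had 9.64 RPM in the CB of B6, where the other 4 CB libraries had 16.3 to 18.1 RPM. MiR-219a-2-3p had 1408 RPM in the HC of B1, where the other 4 HC libraries had 1126 to 1178 RPM. MiR-1298-3p had 1.34 RPM in the CB of B5, where the other 4 CB libraries had 1.97 to 2.26 RPM. MiR-451a had 195 RPM in the CB of B6, where the other 4 CB libraries had 221.6 to 233 RPM. MiR-195-5p had 441 RPM in the CB of B1, where the other 4 CB libraries had 820.4 to 996 RPM. Leaving out the animal concerned kept the direction of each of these miRNAs.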

How the results depend on the processing

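The count of called miRNAs (285) was 247 to 275 without each animal in turn, 271 without the animal as a block, and 249 to 286 over the other alternatives. Its split moved with the scaling. Higher calls, as a share of the miRNAs tested, were 35.9% by median of ratios, 35.6% by edgeR, 34.0% by DESeq2 and 40.6% by quantile normalization instead of 20.7%, and lower calls were 35.6%, 35.4%, 34.8% and 31.5% instead of 58.0%. Without each animal they were 15.7% to 20.4% and 52.5% to 55.5%. With the HC of B2 added the split was 19.3% and 53.6%. CB against neocortex (285) gave 263 to 286 without each animal. HC against neocortex (88) gave 37 to 86 without each animal and 43 without the block. Arm ratio calls (23) were 16 to 23 without each animal and 21 without the block. They were 18 with a pseudocount of 0.1 RPM and 17 among the 62 hairpins with a mean of at least 20 RPM of both arms. With a pseudocount of 10 RPM they were 47. Where a strand is scarce, that ratio follows the level of the abundant strand in part, so these calls are not all changes of strand share. Of 111 single miRNA and hairpin differences, 73 kept direction and call under every alternative. Some decreases in RPM, called ones among them, became increases under another scaling (log2 differences). With median of ratios these were miR-27b-3p (0.11), miR-127-3p (0.0584), miR-128-3p (0.11), miR-451a (0.29), miR-144-3p (0.24), miR-23b-3p (0.11), miR-24-3p (0.29), miR-29a-3p (0.0686) and miR-34a-5p (0.41). With edgeR these were miR-27b-3p (0.12), miR-127-3p (0.0651), miR-128-3p (0.12), miR-451a (0.29), miR-144-3p (0.25), miR-23b-3p (0.12), miR-24-3p (0.30), miR-29a-3p (0.0764) and miR-34a-5p (0.40). With DESeq2 these were miR-27b-3p (0.11), miR-127-3p (0.0584), miR-128-3p (0.11), miR-451a (0.29), miR-144-3p (0.24), miR-23b-3p (0.11), miR-24-3p (0.29), miR-29a-3p (0.0687) and miR-34a-5p (0.40). With quantile normalization these were miR-451a (0.29), miR-144-3p (0.46), miR-144-5p (0.37), miR-208b-3p (0.0241), miR-23b-3p (0.054), miR-24-3p (0.10), miR-146a-5p (0.0307) and miR-34a-5p (0.68). Leaving out each animal moved miR-30c-5p from −0.0116 to 0.0439 and miR-34a-5p from −0.20 to 0.11. The causes were not tested. Levels near the floor of 3 reads limit miR-137 and miR-504-5p in the CB, and depth differed between the regions.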

Other observations

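The entorhinal cortex, which lies beside the hippocampus and feeds into it, held high levels of several miRNAs that were low in the CB. Over its 5 libraries from the same animals miR-137 spanned 340.1 to 617 RPM, compared with 233 to 411 RPM in the HC, and miR-767-5p spanned 136 to 295 RPM, compared with 78.9 to 127 RPM. MiR-222-3p spanned 1922 to 3986 RPM there and 1708 to 3499 RPM in the HC. MiR-34c-5p was at 12.8 to 55.0 RPM, below every HC library. The entorhinal cortex entered the fit of all Group B brain libraries and no comparison of its own.

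MiR-148a-3p and miR-34a-5p were chosen after their values were seen. MiR-148a-3p, a liver and lymphocyte miRNA, measured 646, 1190.0, 1134, 718 and 1140.3 RPM in the CB and 2115, 2535, 2438, 1388 and 4471 RPM in the HC (limma log2 difference −1.36 ± 0.17, adjusted p = 1.8e-04). Against the neocortex its log2 difference was 1.23 for the HC (limma adjusted p = 0.0099) and −0.13 for the CB (limma adjusted p = 0.4). MiR-34a-5p, the p53-induced relative of miR-34c-5p, measured 65.8, 57.7, 122, 87.0 and 50.4 RPM in the CB and 50.5, 72.4, 123.8, 156 and 38.2 RPM in the HC (limma log2 difference −0.08 ± 0.19, adjusted p = 0.7). Its neocortex libraries spanned 92.2 to 429 RPM.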
